A study of Mus musculus with 25 samples.

Results

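Macrophages and fibroblasts sorted from the skin of neutrophil-depleted mice were compared across all genes of the skin expression table. The comparison used 7 of the 25 libraries of the series, which were macrophages 1, 2, 3 and 5 and fibroblasts 2, 4 and 5, numbered as in their sample names. They were taken by their labels for organ, cell type and genotype. The comparison itself was chosen with earlier results of these data known. Of the 12661 genes in the skin table, 12079 were tested, and 582 fell below a filter on low values.

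All mice of the study were C57BL/6 animals with a diphtheria toxin receptor allele at Rosa26 (Rosa26_DTR), and all received diphtheria toxin into the peritoneum at 10 ug/kg for 7 days. The depleted mice also carried Mrp8_CRE, in which the promoter of Mrp8 (S100a8), a gene expressed chiefly in neutrophils, drives Cre recombinase. The control mice were Mrp8_WT. Both groups compared here came from depleted mice, so the comparison is one of cell types and holds no measure of depletion. Skin macrophages had been gated as live cells positive for CD45, CD11b, CD68 and F4/80. Fibroblasts had been gated as live cells with PDGFRA and CD90.1 and without CD45, CD31 or EPCAM. The labels give neither the age of the animals nor the animal behind a library. Xist was high in macrophages 1, 2 and 3 and in fibroblasts 2, and Ddx3y, a gene of the Y chromosome, was high in the other libraries, so each group held cells of at least 1 female and 1 male. Nothing says that all libraries of a group came from separate animals, so that the p-values rest on the spread between the 7 libraries, which may be technical.

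Macrophages of the skin are tissue phagocytes. They engulf dead cells and microbes, digest them in lysosomes, present peptides on major histocompatibility complex (MHC) class II molecules and signal through receptors that pair with immunoreceptor adaptors. Many of them derive from blood monocytes, and their survival depends on colony-stimulating factor 1. Dermal fibroblasts secrete and cross-link the collagens, elastic fibres and proteoglycans of the dermis, and produce growth factors for neighbouring cells.

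The libraries held 6.55e+06 to 1.84e+07 estimated reads, with the fewest in macrophages 1. A share of 1.89 to 22.2% of genes stood at 0 reads, with the largest shares in macrophages 1 and fibroblasts 4 (11.9%). Values are the authors' normalised signal, in which a gene at 0 reads carries the signal of 0.5 reads and 1 read was worth 0.0566 to 0.162. Library values are listed in the order macrophages 1, 2, 3, 5 and fibroblasts 2, 4, 5. Differences are macrophages minus fibroblasts on the scale of log2(signal + 1.03), with 2 to that power given as a fold, and understate the change of genes with low signal. A gene was called when limma's test gave a Benjamini-Hochberg adjusted p below 0.05 over all 12079 genes. Signals were compared within a gene only, since they are not corrected for transcript length. In bulk samples, fewer cells of a type and less RNA per cell cannot be told apart.

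The cell type labels matched the markers in all 7 libraries. An identity score, the mean log2 signal of 16 macrophage markers minus that of 16 fibroblast markers, was 4.77 ± 0.814 (SD, n = 4) in macrophages and -9.03 ± 0.250 (SD, n = 3) in fibroblasts. The difference was 13.80, with no overlap, and the exact two-sided permutation test gave p = 0.0571, the smallest value that 35 arrangements allow, so this design cannot reach 0.05. Of the sorting markers, Adgre1, which encodes F4/80, read 482, 639, 508 and 818 in the macrophage libraries and 0.461, 0.377 and 0.255 in the fibroblast libraries (log2 difference 8.76, SE 0.34, adjusted p 6.49e-08). Ptprc, which encodes CD45, read 681, 654, 522 and 878 in the macrophage libraries and 3.15, 0.435 and 0.0283 in the fibroblast libraries (log2 difference 8.50, SE 0.47, adjusted p 8.98e-07). Itgam (CD11b) and Cd68 were higher in macrophages by 7.20 and 8.10 on the log2 scale. Pdgfra read 346, 205 and 311 in the fibroblast libraries and 0.406, 1.01, 8.42 and 1.26 in the macrophage libraries (log2 difference -6.64, SE 0.69, adjusted p 7.42e-05), and Thy1, which encodes CD90, was lower in macrophages by 10.3-fold. Pecam1 (CD31) and Epcam, which gated fibroblasts negatively, were not called, with differences of 1.95 and 2.08 and adjusted p of 0.15 and 0.0678. The 16 fibroblast markers stood at a median of 0.502 to 2.39% of their fibroblast level in the macrophage libraries. The 16 macrophage markers stood at a median of 0.0584 to 0.159% of their macrophage level in the fibroblast libraries. What these low levels contribute to the values below was not tested.

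Expression differed between the cell types for 2901 of 12079 genes, which is 24.0% of those tested. Of these, 1372 (11.4%) were higher in macrophages and 1529 (12.7%) in fibroblasts. The counts of list members given below stand against these shares of 11.4% and 12.7%. At a difference of 8-fold or more, 615 genes (5.09%) were higher in macrophages and 922 (7.63%) in fibroblasts. The libraries of the 2 groups did not overlap for 4123 genes (34.1%), among them 2861 of the 2901 called. The median difference over all genes tested was -0.11, and scaling by the median ratio moved it to 0.07. The widest differences were 10.67 for Cd74, the invariant chain of MHC class II, and -7.86 for Mfap5, a microfibril glycoprotein. In all, 64 genes higher in macrophages stood at 0 reads in every fibroblast library, and 54 genes higher in fibroblasts stood at 0 reads in every macrophage library.

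**Figure D1:**
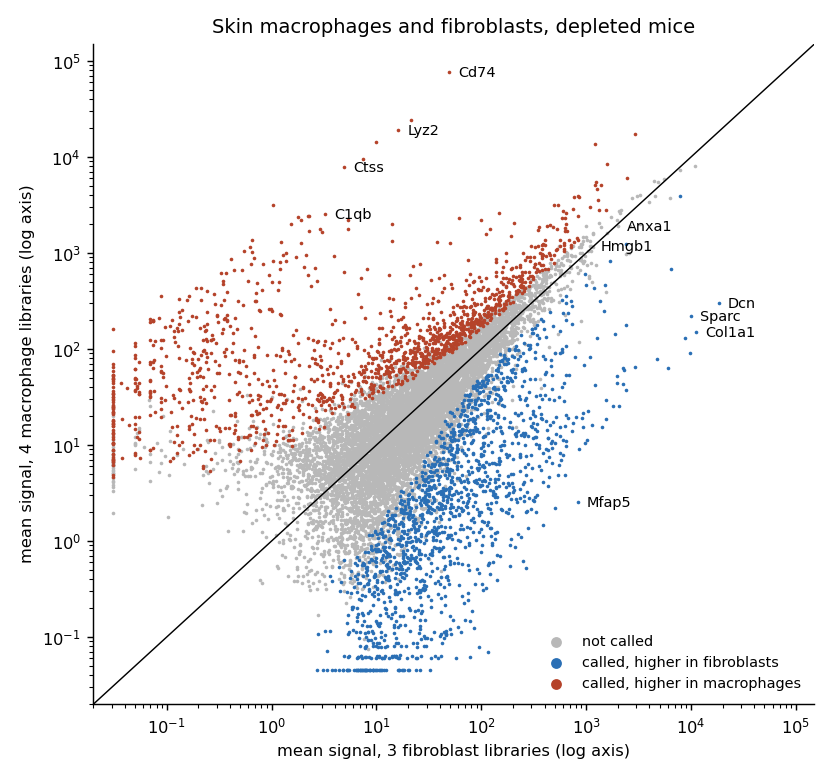
Mean normalised signal of each tested gene in the 3 fibroblast libraries (x, log axis) and the 4 macrophage libraries (y, log axis), with 1372 called genes higher in macrophages in red, 1529 higher in fibroblasts in blue and the rest in grey. Points on the line are equal in both, and Cd74 and Mfap5 lie at the 2 extremes of the difference.

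Cd74, Lyz2 and Ctss were among the genes with the widest differences towards macrophages. Cd74 read 84452, 79762, 81595 and 60371 in the macrophage libraries and 78.0, 33.7 and 35.9 in the fibroblast libraries (SE 0.29, adjusted p 8.94e-09). Lyz2, a lysozyme that cleaves bacterial cell walls, read 17412, 19139, 16748 and 23224 in the macrophage libraries and 28.6, 9.50 and 10.4 in the fibroblast libraries (log2 difference 10.28, SE 0.34, adjusted p 2.27e-08). Its near-identical neighbour Lyz1 differed by 10.54, and reads may be split uncertainly between the pair. Ctss, the cathepsin that trims the invariant chain, read 7545, 7315, 8182 and 8479.5 in the macrophage libraries and 6.20, 4.08 and 4.56 in the fibroblast libraries (log2 difference 10.38, SE 0.20, adjusted p 1.67e-09). Cd74, Lyz2 and Ctss were thus 1628-fold, 1242-fold and 1332-fold higher in macrophages, and the lowest macrophage library lay far above the highest fibroblast library. Ccl6, a chemokine of myeloid cells, Cd53, a leukocyte tetraspanin, and Mgl2, a galactose-binding lectin, differed by 9.74, 9.69 and 9.64 (adjusted p 8.94e-09 for each).

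Of the 12 genes of MHC class II presentation tested, 11 were higher in macrophages and none in fibroblasts, against 11.4% of all genes, with a median difference of 8.28. H2-Aa, H2-Ab1 and H2-Eb1, the chains of the peptide-binding dimers, differed by 10.45, 10.14 and 10.32. H2-DMa, part of the editor that loads peptides, read 2035, 2656, 2466 and 1729 in the macrophage libraries and 12.2, 1.25 and 2.69 in the fibroblast libraries (log2 difference 8.83, SE 0.50, adjusted p 1.15e-06). The transactivator Ciita, which controls the class II genes, read 101, 69.0, 61.5 and 84.3 in the macrophage libraries and 0.0354, 0.0290 and 0.538 in the fibroblast libraries (log2 difference 6.03, SE 0.58, adjusted p 4.46e-05). The costimulatory ligand Cd86 differed by 7.72, while the costimulatory receptor Cd40 differed by 2.95 (adjusted p 0.00725). H2-Ob, a chain of a modulator of peptide loading, was not called, at 0.0809, 12.0, 11.8 and 5.09 in macrophages and at 0 reads in all fibroblast libraries. H2-Oa, its partner, was also at 0 reads in fibroblasts and read 17.1, 0.969, 19.4 and 0.854 in macrophages, and was left untested by the filter on low values. Markers of dendritic and Langerhans cells were less uniform than this group. Of their 9 tested genes 4 were higher in macrophages, 1, the growth factor receptor Kit, in fibroblasts (-2.71, and -2.59 and -2.59 and not called without macrophages 2 or 3), and 4 were not called. Their summed signal was 512 to 1431 in macrophages and 91.7 to 172 in fibroblasts. Cd207, the langerin of Langerhans cells, read 209, 152, 195 and 6.53 in macrophages, with the lowest value in macrophages 5, and 0.481 at most in fibroblasts. Cd209a, a lectin of dermal dendritic cells and macrophages, read 699, 919, 1060.5 and 405 in macrophages. The part of these cells in the class II values was not tested.

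Receptors of immunoglobulin, lectin and paired activating or inhibitory type were nearly all higher in macrophages, at 17 of 18 genes with a median difference of 7.51. Fcgr3, an activating receptor for IgG, read 2407, 2431, 2196 and 2566 in the macrophage libraries and 1.72, 1.35 and 3.60 in the fibroblast libraries (log2 difference 9.59, SE 0.27, adjusted p 8.94e-09). Its inhibitory relative Fcgr2b read 1278, 1285, 1341 and 1263 in the macrophage libraries and 40.6, 57.3 and 16.3 in the fibroblast libraries (log2 difference 5.22, SE 0.36, adjusted p 4.09e-06), and all 3 fibroblast libraries held reads of it. The adaptors Tyrobp and Fcer1g, which carry the activating motif for many of these receptors, differed by 9.23 and 9.64. Trem2, a lipid-sensing receptor that uses Tyrobp, read 139.6, 227, 322 and 283 in the macrophage libraries and 0.319, 0.145 and 0.255 in the fibroblast libraries (log2 difference 7.53, SE 0.46, adjusted p 1.94e-06). The paired receptors Pirb and Pira2 differed by 8.05 and 7.63. Clec4n, Clec4a1 and Clec4a3, C-type lectins of myeloid cells, differed by 8.84, 8.77 and 8.57. Siglece, an inhibitory receptor for sialic acid, read 38.9, 27.8, 26.5 and 42.5 in macrophages against 0 reads in all fibroblast libraries (log2 difference 5.02). That is at least 425-fold higher when the fibroblasts are set at 3 reads over all their libraries, a bound that allows for read sampling alone.

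The phagocyte oxidase and leukocyte cytoskeleton were marked in the same way, with 17 of 18 genes higher in macrophages and a median of 6.43. Cybb, the catalytic subunit of the oxidase, read 1043, 1065, 931 and 1623 in the macrophage libraries and 0.456, 0.492 and 0.934 in the fibroblast libraries (log2 difference 9.44, SE 0.30, adjusted p 2.13e-08). Its membrane partner Cyba read 2283, 2848, 2949.5 and 2432 in the macrophage libraries and 218, 121 and 102 in the fibroblast libraries (log2 difference 4.22, SE 0.26, adjusted p 2.22e-06), so the fibroblast libraries held reads of this subunit too. The cytosolic subunits Ncf1 and Ncf4 differed by 5.97 and 7.28. Coro1a and Lcp1, actin-binding proteins of leukocytes, differed by 8.50 and 7.57, and the signalling inhibitor Arhgdib by 3.81. The actin cofactor Wipf1 was not called, with a difference of 0.16 (adjusted p 0.783).

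Genes of perivascular resident macrophages and genes of monocytes were both present in the macrophage libraries. In the perivascular list, 13 of 16 genes were higher in macrophages, with a median of 4.20. Cd163, the scavenger of haemoglobin, read 594, 362, 371 and 301 in the macrophage libraries and 1.95, 0.417 and 0.0866 in the fibroblast libraries (log2 difference 7.87, SE 0.45, adjusted p 1.11e-06). The mannose receptor Mrc1 read 494, 548, 633 and 654 in the macrophage libraries and 5.14, 0.550 and 0.991 in the fibroblast libraries (log2 difference 7.75, SE 0.46, adjusted p 1.44e-06). Pf4, Cd209d and F13a1, which encode a platelet-type chemokine, a lectin and a clotting factor subunit, differed by 8.43, 8.31 and 6.78. Selenop, a selenium carrier, was higher in macrophages by 6.12-fold and read 833, 339.7 and 453 in fibroblasts. Lyve1, a hyaluronan receptor of some perivascular macrophages, was not called and read 0.0809, 20.1, 7.09 and 19.5 in the macrophage libraries and 7.83, 0.0290 and 0.878 in the fibroblast libraries.

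Of 12 genes of monocytes, 7 were higher in macrophages and 3 in fibroblasts. Ccr2, the receptor that brings monocytes out of the marrow, read 1769, 1543, 1237 and 1986 in the macrophage libraries and 6.73, 1.32 and 1.02 in the fibroblast libraries (log2 difference 8.91, SE 0.44, adjusted p 3.77e-07). Chil3, a chitinase-like lectin, read 231, 149, 135 and 255 in the macrophage libraries and 0.815, 0.0290 and 0.0849 in the fibroblast libraries (log2 difference 7.17, SE 0.49, adjusted p 4.12e-06), and Plac8 differed by 4.12. The members of the list that were higher in fibroblasts were Ace, Vcan and Fn1, which encode an angiotensin-converting enzyme, a matrix proteoglycan and fibronectin. Ace read 60.1, 89.3 and 106 in the fibroblast libraries and 0.0809, 1.97, 4.23 and 10.7 in the macrophage libraries (log2 difference -4.47, SE 0.81, adjusted p 0.00264). Vcan and Fn1 differed by -2.05 and -0.70 (adjusted p 0.026 and 0.0317), and both calls were marginal. Without fibroblasts 2, fibroblasts 4, fibroblasts 5 or macrophages 3, Vcan was not called (-2.14, -1.79, -2.22 and -2.05). Fn1 was not called without fibroblasts 4, fibroblasts 5, macrophages 2 or macrophages 3 (-0.57, -0.76, -0.64 and -0.63).

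Sensors of microbes were less uniform, with 9 of 21 genes higher in macrophages, 1 in fibroblasts and 11 not called. Tlr13 and Tlr7, endosomal receptors for RNA, differed by 6.35 and 6.02. Tlr3, the endosomal receptor for double-stranded RNA, was the gene higher in fibroblasts, at 7.55, 47.4 and 11.7 in the fibroblast libraries and 0.0809, 0.531, 0.391 and 6.39 in the macrophage libraries (log2 difference -3.08, SE 0.93, adjusted p 0.0359), and its call was lost without any 1 of fibroblasts 4 and 5 and macrophages 1, 2 and 3 (-2.34 to -3.30). Cd14, the co-receptor for lipopolysaccharide, read 223, 535, 505 and 1244 in the macrophage libraries and 5.14, 0.435 and 9.20 in the fibroblast libraries (log2 difference 6.86, SE 0.70, adjusted p 6.89e-05). In the inflammasome and interleukin-1 list 9 of 16 genes were higher in macrophages and 2 in fibroblasts, and 5 were higher in macrophages without macrophages 5. Il1b read 102, 135, 149 and 271 in the macrophage libraries and 1.81, 0.0290 and 0.0849 in the fibroblast libraries (log2 difference 6.70, SE 0.57, adjusted p 2.02e-05). Casp1, which cleaves its precursor, read 133, 114, 102 and 113 in the macrophage libraries and 2.02, 0.0869 and 3.20 in the fibroblast libraries (log2 difference 5.58, SE 0.55, adjusted p 5.63e-05). The decoy receptor Il1r2 ran the other way, at 1071, 486 and 347 in the fibroblast libraries and 112, 118, 125 and 73.3 in the macrophage libraries (log2 difference -2.42, SE 0.37, adjusted p 9.47e-04). The signalling receptor Il1r1 was not called, at 104, 13.9 and 79.5 in the fibroblast libraries and 66.3, 4.53, 13.4 and 12.3 in the macrophage libraries, and its libraries overlapped between the groups. The alarmin Il33 was higher in fibroblasts by 4.39-fold (adjusted p 0.016), a call that was lost without fibroblasts 4 (log2 difference -1.86) and without fibroblasts 5 (-1.75).

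Lysosomal genes divided between the cell types. Of 33 genes, 21 were higher in macrophages, 4 in fibroblasts and 8 were not called, with a median difference of 1.63. Ctsc, the dipeptidase that activates granule proteases, read 2104, 2229.7, 2009.6 and 2826 in the macrophage libraries and 30.2, 98.7 and 56.6 in the fibroblast libraries (log2 difference 5.33, SE 0.34, adjusted p 2.59e-06). Lgmn, the asparagine endopeptidase, differed by 4.50. Ctsb, a cathepsin made by most cells, read 4896, 4375, 4741 and 6352 in the macrophage libraries and 1494, 1044 and 1092 in the fibroblast libraries (log2 difference 2.08, SE 0.21, adjusted p 6.88e-05). Psap, the precursor of the saposins, and Npc2, the luminal cholesterol carrier, were higher in macrophages by 4.28-fold and 4.67-fold. Atp6v0d2, a proton pump subunit of osteoclasts and macrophages, differed by 6.54. In the other direction, Ctsk, the collagen-cleaving cathepsin, read 2209, 1001 and 860.2 in the fibroblast libraries and 289, 312, 295 and 367 in the macrophage libraries (log2 difference -1.98, SE 0.31, adjusted p 0.00102). Ctsl read 758, 524 and 407 in the fibroblast libraries and 164, 138, 171 and 144 in the macrophage libraries (log2 difference -1.82, SE 0.25, adjusted p 4.21e-04), and Ctsf and the acid glucosidase Gaa were lower in macrophages, with differences of -2.57 and -2.09. The libraries of the groups did not overlap for these 4 genes.

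Genes of dead-cell uptake and lipid handling also fell on both sides, with 10 of 25 higher in macrophages and 6 in fibroblasts. Msr1, a scavenger receptor, differed by 7.33, and Abcg1, a cholesterol exporter, read 668, 518, 653 and 533 in the macrophage libraries and 49.2, 47.2 and 36.3 in the fibroblast libraries (log2 difference 3.72, SE 0.22, adjusted p 1.65e-06). Cd36, a fatty acid and lipoprotein receptor, differed by 4.79 (adjusted p 0.00312). Axl, a receptor tyrosine kinase for dead-cell bridging proteins, was higher in fibroblasts, at 386, 438 and 512 in the fibroblast libraries and 28.2, 36.5, 19.6 and 36.9 in the macrophage libraries (log2 difference -3.86, SE 0.29, adjusted p 8.91e-06). Its ligand Gas6 was higher in fibroblasts as well, at 678, 414 and 677 in the fibroblast libraries and 114, 88.6, 109 and 83.9 in the macrophage libraries (log2 difference -2.54, SE 0.25, adjusted p 5.61e-05). The related receptor Mertk, which was fixed as a macrophage marker, was not called and read 6.39, 9.72, 32.0 and 13.4 in the macrophage libraries and 13.6, 8.54 and 10.0 in the fibroblast libraries. Abca1, another cholesterol exporter, was also not called (log2 difference 0.59, SE 0.37, adjusted p 0.286).

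Complement genes lay on both sides. Of 20 genes, 8 were higher in macrophages and 9 in fibroblasts, and the median difference was -0.74. The recognition subunits C1qa, C1qb and C1qc were higher in macrophages, and C1qb read 2049.8, 2372, 3199.5 and 2536 in the macrophage libraries and 5.49, 1.13 and 3.14 in the fibroblast libraries (log2 difference 9.33, SE 0.36, adjusted p 6.09e-08). C1qa and C1qc differed by 8.69 and 9.07. The proteases of the same C1 complex were higher in fibroblasts, and C1s1 read 371, 333 and 295 in the fibroblast libraries and 0.566, 4.47, 2.66 and 0.370 in the macrophage libraries (log2 difference -7.00, SE 0.60, adjusted p 2.02e-05). C1ra read 345, 243 and 304 in the fibroblast libraries and 0.404, 4.09, 16.2 and 11.04 in the macrophage libraries (log2 difference -5.56, SE 0.76, adjusted p 4.48e-04). C3, the central component, read 311, 382 and 238 in the fibroblast libraries and 8.17, 7.78, 16.4 and 36.1 in the macrophage libraries (log2 difference -4.34, SE 0.51, adjusted p 1.65e-04). Serping1, the inhibitor of the C1 proteases, read 2224, 1808 and 1373 in the fibroblast libraries and 25.6, 16.8, 48.0 and 11.2 in the macrophage libraries (log2 difference -6.26, SE 0.43, adjusted p 4.09e-06). Cfp, which stabilises the alternative convertase, was higher in macrophages by 9.37, as were the anaphylatoxin receptors C3ar1 and C5ar1, by 6.82 and 7.13.

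**Figure D2:**
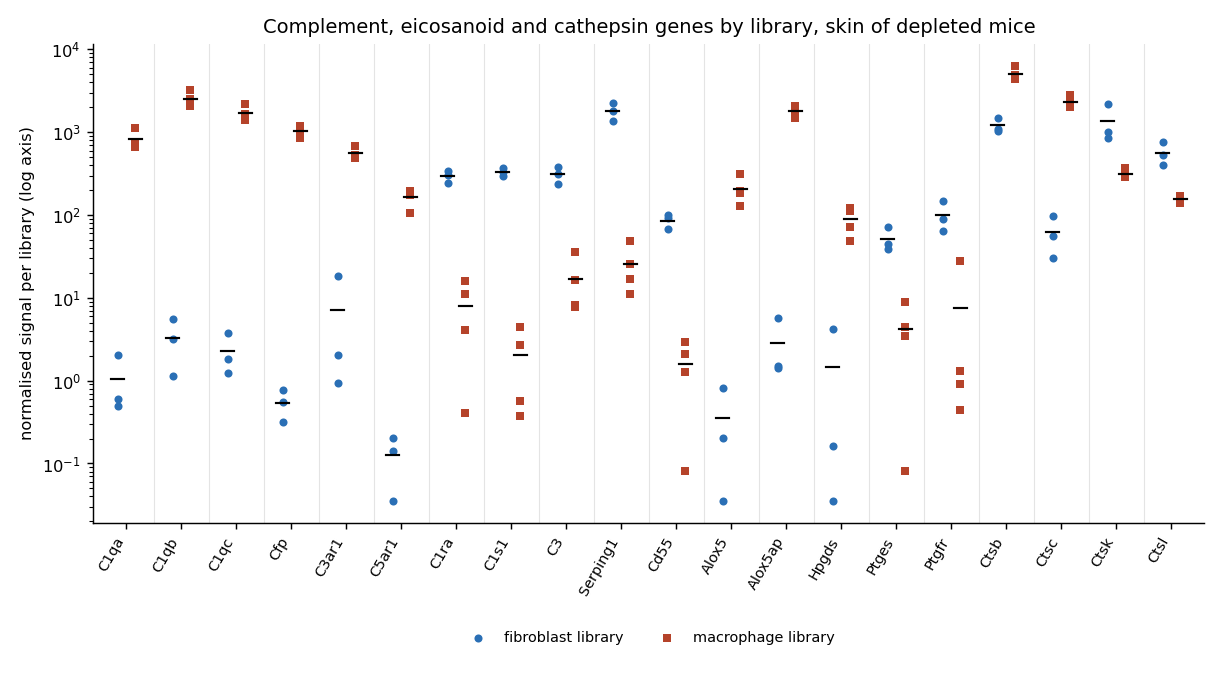
Normalised signal per library (y, log axis) of complement, eicosanoid and cathepsin genes in 3 fibroblast libraries (blue circles) and 4 macrophage libraries (red squares), with group means as black lines. C1qa to C5ar1 lie higher in macrophages and C1ra to C3 higher in fibroblasts, and of the cathepsins Ctsb and Ctsc lie higher in macrophages and Ctsk and Ctsl in fibroblasts.

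Of 23 chemokine genes, 10 were higher in macrophages and 4 in fibroblasts. Ccl9 differed by 8.95 and Cxcl16, a transmembrane chemokine and scavenger receptor, by 3.40. Cxcl2, a neutrophil attractant, read 19.7, 60.3, 86.4 and 179 in the macrophage libraries and 0.602, 0.0290 and 1.39 in the fibroblast libraries (log2 difference 5.38, SE 0.79, adjusted p 7.54e-04). The fibroblast chemokines were Ccl11, Cxcl12, Cxcl14 and Ccl19. Ccl11, an eosinophil attractant, read 134, 136 and 151 in the fibroblast libraries and 0.560, 0.178, 0.533 and 0.308 in the macrophage libraries (log2 difference -6.64, SE 0.61, adjusted p 3.24e-05). Cxcl12, which retains leukocytes and progenitors in stroma, read 1136, 355 and 454 in the fibroblast libraries and 0.890, 15.0, 22.6 and 5.02 in the macrophage libraries (log2 difference -6.13, SE 0.79, adjusted p 3.23e-04). Cxcl14 and Ccl19 differed by -3.21 and -4.11. Ccl2 and Ccl7, attractants of monocytes, were not called, with differences of 1.01 (95% interval 0.19 to 1.83) and -0.29 (95% interval -1.01 to 0.44), and both cell types held signal for them. Of 18 chemoattractant receptors, 10 were higher in macrophages, with Ccr1, a receptor for inflammatory chemokines, at 7.00. The 4 that were higher in fibroblasts were Ackr1, Ackr2, Ackr3 and Ackr4, the atypical receptors that bind chemokines without signalling through G proteins. Ackr3, which binds CXCL12, read 91.1, 89.2 and 88.8 in the fibroblast libraries and 0.0809, 7.41, 7.07 and 2.77 in the macrophage libraries (log2 difference -4.46, SE 0.77, adjusted p 0.00194).

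The list of ligand and receptor pairs held 45 tested genes, of which 15 were higher in macrophages and 16 in fibroblasts, with a median of -0.10. The ligands of the CSF1 receptor lay on the fibroblast side. Csf1 read 138, 162 and 130.4 in the fibroblast libraries and 11.9, 0.0937, 0.107 and 5.64 in the macrophage libraries (log2 difference -5.48, SE 0.90, adjusted p 0.00149). Il34, the other ligand, read 32.6, 35.1 and 41.6 in the fibroblast libraries and 0.0809, 7.28, 2.95 and 4.0 in the macrophage libraries (log2 difference -3.34, SE 0.80, adjusted p 0.0116), and its call was lost without fibroblasts 5 (log2 difference -3.24). The receptor Csf1r read 662, 614, 683 and 809 in the macrophage libraries and 2.28, 1.05 and 4.50 in the fibroblast libraries (log2 difference 7.68, SE 0.36, adjusted p 2.58e-07), so ligands and receptor were divided without overlap. Csf2ra and Csf2rb, the chains of the receptor for granulocyte-macrophage colony-stimulating factor, were higher in macrophages by 8.31 and 5.81.

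Platelet-derived growth factor receptors were on the fibroblast side. Pdgfrb read 124, 110.4 and 84.4 in the fibroblast libraries and 0.404, 4.97, 0.746 and 0.171 in the macrophage libraries (log2 difference -5.68, SE 0.74, adjusted p 3.25e-04). The ligands Pdgfa, Pdgfb and Pdgfc were not called, with differences of -1.58, 1.73 and -0.33 and overlapping libraries. Pdgfb read 0.0809, 7.28, 18.0 and 6.32 in the macrophage libraries and 0.0354, 0.0869 and 3.98 in the fibroblast libraries, with macrophages 1 at 0 reads. Cxcr4, the signalling receptor for CXCL12, was higher in macrophages at 6.39, 9.80, 18.2 and 6.59 in the macrophage libraries and 1.03, 0.0290 and 0.142 in the fibroblast libraries (log2 difference 2.93, SE 0.69, adjusted p 0.0108), and its call was lost without fibroblasts 5 (log2 difference 2.82).

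Interleukin-6 family genes were divided as well. Osm, encoding oncostatin M, read 41.2, 22.8, 25.1 and 72.5 in macrophages and stood at 0 reads in all fibroblast libraries (log2 difference 5.14), at least 514-fold higher on the basis used for Siglece. Its receptor chain Osmr read 76.0, 30.4 and 46.3 in the fibroblast libraries and 6.07, 1.46, 0.0355 and 0.243 in the macrophage libraries (log2 difference -4.46, SE 0.84, adjusted p 0.0033), and the shared chain Il6st read 137, 125 and 168 in the fibroblast libraries and 18.1, 31.1, 24.0 and 35.9 in the macrophage libraries (log2 difference -2.38, SE 0.34, adjusted p 5.64e-04). Il11ra1, the interleukin-11 receptor, was higher in fibroblasts by 12.7-fold. Tnf read 29.0, 62.4, 87.3 and 84.4 in the macrophage libraries and 0.956, 0.0290 and 0.708 in the fibroblast libraries (log2 difference 5.33, SE 0.65, adjusted p 2.35e-04). Of its receptors, Tnfrsf1b was higher in macrophages by 5.33, and Tnfrsf1a was not called (difference -0.34, 95% interval -0.97 to 0.28). Il10ra, a receptor chain for interleukin-10, read 37.3, 46.6, 46.9 and 64.5 in macrophages against 0 reads in all fibroblast libraries (log2 difference 5.53), at least 652-fold higher on that basis. Igf1 was higher in fibroblasts by 2.15-fold, at 1389, 789 and 832 in the fibroblast libraries and 547, 349.8, 639 and 334 in the macrophage libraries (adjusted p 0.0211), and the call was lost without fibroblasts 2 (log2 difference -0.85), macrophages 2 (-0.99) or macrophages 5 (-0.96).

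**Figure D3:**
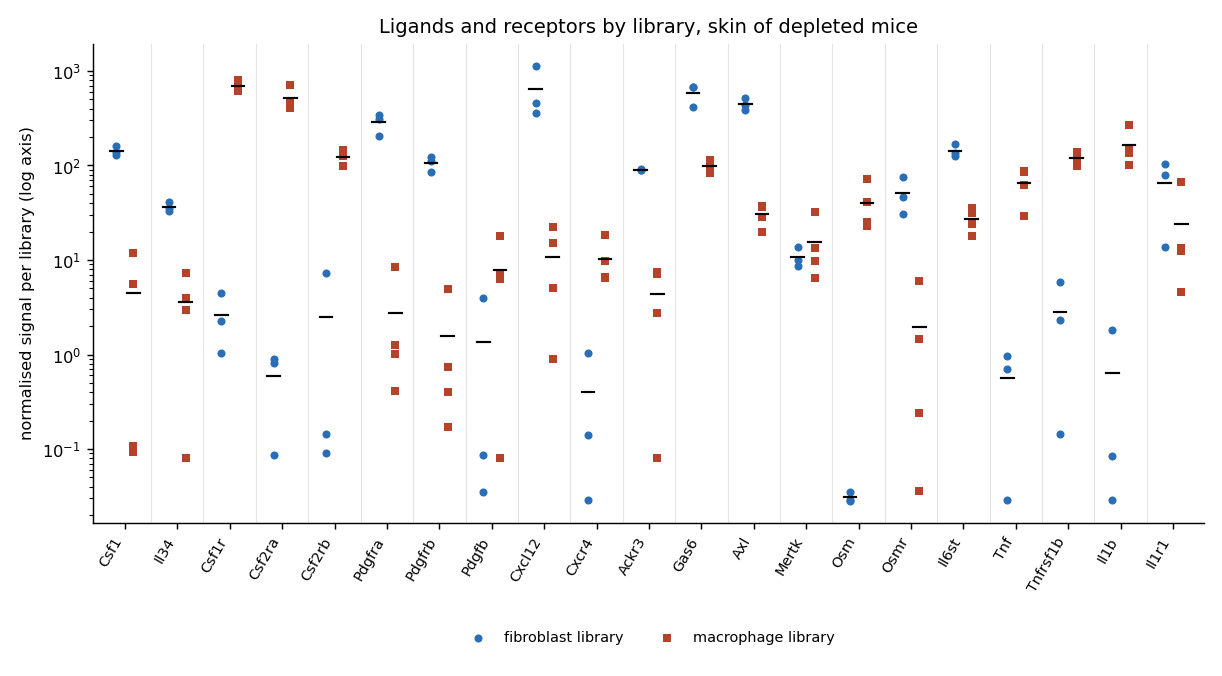
Normalised signal per library (y, log axis) of ligands and receptors in 3 fibroblast libraries (blue circles) and 4 macrophage libraries (red squares), with group means as black lines. Csf1 and Il34 lie higher in fibroblasts and Csf1r in macrophages without overlap, Osm lies higher in macrophages and Osmr in fibroblasts, and Mertk and Il1r1 overlap.

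Eicosanoid genes leaned to macrophages, with 12 of 26 higher there and 2 in fibroblasts. Alox5ap, the protein that presents arachidonic acid to 5-lipoxygenase, read 1581, 2052, 2023 and 1502 in the macrophage libraries and 5.69, 1.42 and 1.5 in the fibroblast libraries (log2 difference 9.0, SE 0.37, adjusted p 9.83e-08). Alox5, the lipoxygenase itself, differed by 7.19. Hpgds, which makes prostaglandin D, differed by 5.49, and Pla2g7, which degrades platelet-activating factor, by 5.41. The fibroblast members were Ptges, a prostaglandin E synthase, at 71.5, 45.2 and 39.4 in the fibroblast libraries and 0.0809, 8.85, 3.45 and 4.41 in the macrophage libraries (log2 difference -3.67, SE 0.81, adjusted p 0.00778), and Ptgfr, the prostaglandin F receptor, with a difference of -4.68. Of 20 genes of iron and haem handling, 9 were higher in macrophages, among them Slc11a1, the phagosomal metal exporter, at 5.68, and the ferritin chains Ftl1 and Fth1, at 2.61 and 1.34. Ftl1 read 16278, 15125, 19807 and 18500.0 in the macrophage libraries and 3980.2, 2658 and 2143 in the fibroblast libraries (adjusted p 3.47e-05). Steap4, a metalloreductase, was higher in fibroblasts by 8.14-fold, and Slc40a1, the iron exporter, by 6.86-fold (adjusted p 0.0403), although the latter call was lost without any 1 of fibroblasts 2, 4 and 5 and macrophages 2 (-2.49 to -3.01). Of 14 genes of alternative activation, 7 were higher in macrophages, and Retnla, a secreted resistin-like protein, read 389, 284, 435 and 452 in the macrophage libraries and 0.886, 0.145 and 0.0849 in the fibroblast libraries (log2 difference 8.15, SE 0.39, adjusted p 3.38e-07). Clec10a differed by 6.90, and Socs2, a cytokine signalling inhibitor of the same list, was higher in fibroblasts (-3.55), as was Socs1 (-2.83), a call lost without any 1 of fibroblasts 2, 4 and 5 and macrophages 2 and 5 (-2.77 to -3.05).

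By the difference in mean signal, which favours abundant transcripts, the leading macrophage genes also held Tmsb4x, an actin-sequestering peptide, and Actb, an actin. Tmsb4x read 13190.0, 14024, 16659 and 10730.0 in the macrophage libraries and 1225, 1519.7 and 897 in the fibroblast libraries (log2 difference 3.51, SE 0.24, adjusted p 3.75e-06). Actb read 9237, 8694, 8509 and 6961 in the macrophage libraries and 1483, 1702 and 1579 in the fibroblast libraries (log2 difference 2.39, SE 0.18, adjusted p 9.28e-06), so both cell types held these transcripts at high signal. The leading fibroblast genes by the same measure also held Gsn, an actin-severing protein, Aspn, a proteoglycan, and the mitochondrial cytochrome b gene mt-Cytb. Gsn read 4599, 5378 and 9499.6 in the fibroblast libraries and 777, 705, 456 and 759 in the macrophage libraries (log2 difference -3.22, SE 0.29, adjusted p 2.83e-05), and mt-Cytb read 8025, 9839.6 and 5489.7 in the fibroblast libraries and 4231, 3710.2, 4186 and 3388 in the macrophage libraries (log2 difference -0.97, SE 0.23, adjusted p 0.0113) and was not called without fibroblasts 4 (-0.78).

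On the fibroblast side, the genes with the widest differences encoded microfibril, matricellular and other secreted proteins. Mfap5 read 559, 1132 and 805 in the fibroblast libraries and 1.53, 3.09, 3.94 and 1.67 in the macrophage libraries (SE 0.43, adjusted p 7.76e-07). Tnc, encoding tenascin C, read 693, 521 and 303 in the fibroblast libraries and 0.890, 0.781, 6.71 and 0.376 in the macrophage libraries (log2 difference -7.60, SE 0.66, adjusted p 2.12e-05). Fbn1, the microfibril core protein fibrillin, read 553, 784 and 565 in the fibroblast libraries and 1.05, 7.53, 8.21 and 2.49 in the macrophage libraries (log2 difference -7.00, SE 0.55, adjusted p 1.08e-05). Islr, Cpxm1 and Clec3b, which encode secreted proteins of stromal cells, differed by -7.42, -7.37 and -7.26. The macrophage libraries lay far below the fibroblast libraries for each of these 6 genes.

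All 7 fibrillar collagen genes tested were higher in fibroblasts, against 12.7% of all genes, with a median of -6.27. Col1a1, a chain of type I collagen, read 10202, 9118 and 13950.0 in the fibroblast libraries and 208, 93.3, 241 and 61.2 in the macrophage libraries (log2 difference -6.38, SE 0.44, adjusted p 4.05e-06). Col3a1, the chain of type III collagen, read 8124, 11243 and 10042 in the fibroblast libraries and 83.1, 73.1, 168 and 38.5 in the macrophage libraries (log2 difference -6.92, SE 0.40, adjusted p 1.30e-06). Col1a2, Col5a1, Col5a2, Col5a3 and Col11a1 differed by -6.27, -6.97, -6.26, -6.05 and -5.41, so all 7 lay between -5.41 and -6.97. Of 20 other collagen genes, 16 were higher in fibroblasts, none in macrophages. The beaded filament chains Col6a1, Col6a2 and Col6a3 differed by -5.79, -6.78 and -5.62. The basement membrane chains Col4a1 and Col4a2 differed by -5.82 and -6.84, and the fibril-associated Col14a1 and Col12a1 by -6.42 and -5.20. Col7a1, the chain of anchoring fibrils, read 43.4, 21.1 and 37.6 in the fibroblast libraries and 0.243, 3.47, 4.23 and 2.08 in the macrophage libraries (log2 difference -3.43, SE 0.75, adjusted p 0.00749). Col6a6 stood at 0 reads in all macrophage libraries and read 6.48, 33.0 and 31.9 in fibroblasts (log2 difference -4.25), at least 537-fold higher there with the macrophages set at 3 reads over all their libraries.

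Of 29 genes that modify, fold and cross-link collagen, 20 were higher in fibroblasts and none in macrophages, with a median of -2.78. Serpinh1, the collagen chaperone, read 1447, 1155 and 1999 in the fibroblast libraries and 1.86, 32.2, 29.9 and 10.8 in the macrophage libraries (log2 difference -6.77, SE 0.73, adjusted p 1.01e-04). Pcolce, an enhancer of procollagen cleavage, and Adamts2 and Bmp1, procollagen proteases, differed by -6.07, -6.45 and -5.95. The cross-linking oxidases Lox, Loxl1 and Loxl2 differed by -5.55, -6.77 and -6.67. Crtap, a cofactor of prolyl hydroxylation, read 223, 93.1 and 143 in the fibroblast libraries and 40.9, 21.8, 40.3 and 18.4 in the macrophage libraries (log2 difference -2.29, SE 0.42, adjusted p 0.00284). P4hb, a disulfide isomerase that also serves prolyl hydroxylase, was not called (log2 difference -0.84, SE 0.37, adjusted p 0.137), nor was the isomerase Ppib (log2 difference -0.37, SE 0.23, adjusted p 0.3).

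Elastic fibre genes were higher in fibroblasts for 15 of 17, with a median of -5.05. Eln, encoding elastin, read 488, 463 and 421 in the fibroblast libraries and 12.1, 3.03, 21.1 and 5.57 in the macrophage libraries (log2 difference -5.61, SE 0.54, adjusted p 4.43e-05). The microfibril genes Mfap2 and Mfap4 differed by -5.93 and -6.23, and the fibulins Fbln1, Fbln2 and Fbln5 by -5.86, -5.92 and -4.67. Emilin2 was higher in macrophages by 2.75-fold (adjusted p 0.0428), a call that was lost without any 1 of fibroblasts 2, 4 and 5 and macrophages 1, 2 and 5, with differences of 1.22 to 1.59. Of 25 proteoglycan genes, 19 were higher in fibroblasts. The small leucine-rich members Dcn, Lum, Bgn, Fmod and Ogn, which coat and space collagen fibrils, differed by -6.14, -6.69, -5.22, -5.55 and -6.71. Dcn read 28349, 14604 and 12146 in the fibroblast libraries and 363, 290.3, 494 and 64.5 in the macrophage libraries, and its largest value was in fibroblasts 2. Srgn, the proteoglycan of leukocyte granules, was higher in macrophages at 596, 613, 724 and 440.2 in the macrophage libraries and 18.0, 15.0 and 6.26 in the fibroblast libraries (log2 difference 5.49, SE 0.36, adjusted p 2.65e-06).

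Matricellular and adhesive glycoproteins had a median of -5.28, with 28 of 31 genes higher in fibroblasts and 2 in macrophages. Sparc, a collagen-binding protein, read 11716, 10364 and 7673 in the fibroblast libraries and 202, 202, 360.1 and 118 in the macrophage libraries (log2 difference -5.57, SE 0.33, adjusted p 1.65e-06). Postn, encoding periostin, read 5970.5, 4309 and 3799 in the fibroblast libraries and 54.3, 93.1, 134 and 30.5 in the macrophage libraries (log2 difference -6.07, SE 0.43, adjusted p 5.36e-06). Dpt and Tnxb, which assist collagen fibril assembly, differed by -6.39 and -6.57. Ecm1, a secreted glycoprotein, was higher in macrophages by 0.67, and this call was lost without any 1 of fibroblasts 2, 4 and 5 and macrophages 1, 2 and 5 (0.52 to 0.78). Tgfbi, a matrix protein bound by integrins, was higher in macrophages, at 684, 1269, 1361 and 1471 in the macrophage libraries and 273, 528 and 418 in the fibroblast libraries (log2 difference 1.55, SE 0.31, adjusted p 0.00484). Proteases were divided, with 15 of 29 genes higher in fibroblasts and 5 in macrophages. Mmp2, a gelatinase, read 2435, 1731 and 2566 in the fibroblast libraries and 78.9, 26.0, 44.1 and 24.0 in the macrophage libraries (log2 difference -5.81, SE 0.39, adjusted p 3.40e-06). Mmp12, the macrophage elastase, read 450.5, 444, 438 and 457 in the macrophage libraries and 3.21, 2.15 and 1.79 in the fibroblast libraries (log2 difference 7.06, SE 0.30, adjusted p 1.25e-07). The other proteases higher in macrophages were Mmp9, Mmp8, Adam8 and Adam15 (5.15, 4.25, 3.99 and 2.16), and Adam8 differed by 2.59 without fibroblasts 2. Mmp8 and Mmp9 are also among the neutrophil markers described further on. The inhibitors Timp3 and Timp2 were higher in fibroblasts by 32.2-fold and 4.05-fold.

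**Figure D4:**
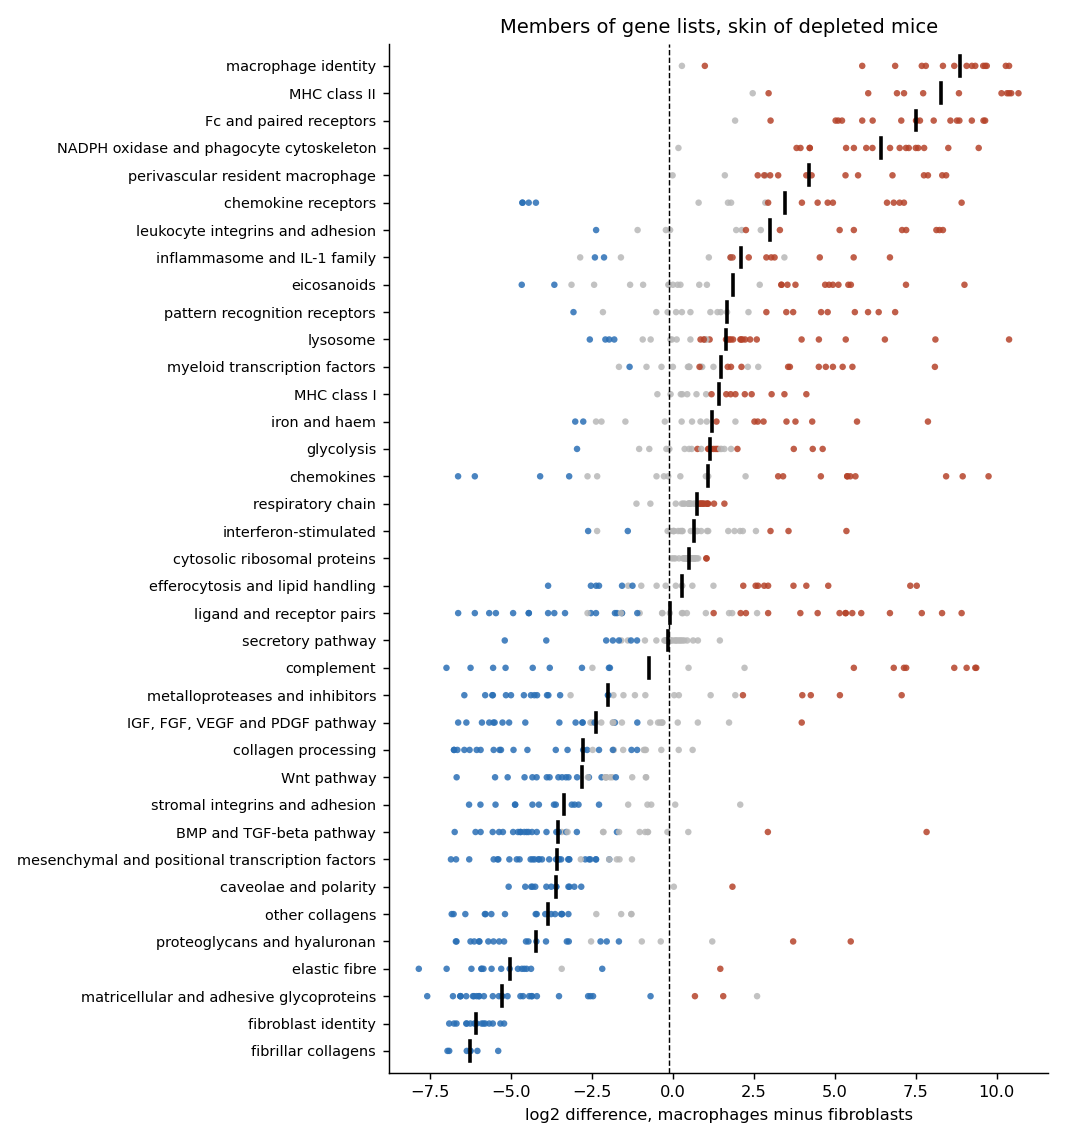
Log2 difference (x, macrophages minus fibroblasts) of the tested members of 37 gene lists, 1 row a list, with called genes in red (higher in macrophages) or blue (higher in fibroblasts), uncalled genes in grey, list medians as black bars and the median of all genes (-0.11) as a dashed line. Receptor and presentation lists lie to the right, matrix lists to the left, and complement, ligands and receptors, chemokines and lysosome hold both colours.

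Signalling pathways that shape connective tissue were on the fibroblast side. Of 26 Wnt pathway genes, 16 were higher in fibroblasts and none in macrophages. The secreted antagonists Sfrp2, Dkk2, Dkk3 and Wif1 differed by -5.50, -4.59, -6.69 and -3.31, and the receptor Fzd1 by -5.11. Of 34 genes of bone morphogenetic protein and transforming growth factor-beta signalling, 21 were higher in fibroblasts. Fstl1, a secreted modulator, read 1841, 2566 and 2723 in the fibroblast libraries and 70.0, 26.3, 37.9 and 16.8 in the macrophage libraries (log2 difference -6.11, SE 0.41, adjusted p 3.75e-06). The ligands Bmp5, Tgfb2 and Tgfb3 differed by -6.75, -5.38 and -4.36. Nrros, which anchors latent transforming growth factor-beta on myeloid cells, was higher in macrophages at 342, 308, 197 and 443 in the macrophage libraries and 0.332, 0.175 and 0.538 in the fibroblast libraries (log2 difference 7.83, SE 0.42, adjusted p 7.47e-07). Lrrc32, its counterpart on other cells, was higher in fibroblasts at 33.7, 37.1 and 17.8 in the fibroblast libraries and 0.0809, 0.0312, 0.107 and 0.103 in the macrophage libraries (log2 difference -4.72, SE 0.64, adjusted p 4.47e-04). The other gene of the list higher in macrophages was Gdf15, a stress cytokine (2.93), whose call was lost without fibroblasts 5 (2.91). In the list of insulin-like, fibroblast and platelet-derived growth factors, 17 of 33 genes were higher in fibroblasts. The binding proteins Igfbp5, Igfbp6 and Igfbp7 differed by -5.52, -5.27 and -5.55, and Igf2 by -5.91. Flt1, a receptor for vascular endothelial growth factor, was the only called member higher in macrophages (3.97, adjusted p 0.00487).

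Of 16 leukocyte adhesion genes, 9 were higher in macrophages, among them Itgb2, the common chain of leukocyte integrins, at 297, 395, 294 and 728 in the macrophage libraries and 0.177, 0.319 and 0.142 in the fibroblast libraries (log2 difference 8.34, SE 0.43, adjusted p 5.57e-07), and Selplg, a selectin ligand, with 8.23. The integrin chain Itgb3 was higher in fibroblasts (-2.38), and 6 were not called. Without any 1 of fibroblasts 2, 4 and 5 and macrophages 2, 3 and 5, Itgb3 was not called (-2.62 to -1.95). Of 18 stromal adhesion genes, 13 were higher in fibroblasts. Cdh11, the cadherin of mesenchymal cells, read 223, 152 and 215 in the fibroblast libraries and 0.663, 6.57, 5.68 and 3.11 in the macrophage libraries (log2 difference -5.49, SE 0.60, adjusted p 1.09e-04). Gja1, a gap junction protein, and Ddr2, a collagen receptor kinase, differed by -4.15 and -5.95. The integrin chains Itgb1, Itgav and Itga5 were not called, with differences of -0.68, -1.39 and 0.06. Caveolar and polarity genes were higher in fibroblasts for 13 of 15, with Cav1 and Cavin1, which form caveolae, at -3.62 and -3.24. Of 26 guidance genes, 12 were higher in fibroblasts, and 7 without fibroblasts 5. Slit3, a repellent ligand, read 132, 128 and 119 in the fibroblast libraries and 0.243, 1.66, 1.315 and 0.376 in the macrophage libraries (log2 difference -6.12, SE 0.62, adjusted p 6.85e-05), while Sema4a, a semaphorin of immune cells, was higher in macrophages (3.08), as was Sema4d (2.99).

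Genes listed for several dermal compartments were higher in fibroblasts than in macrophages. A comparison with macrophages does not place the fibroblasts in a compartment. Of 15 genes of the reticular dermis and fascia, 12 were higher in fibroblasts than in macrophages. Cd34 read 1108, 928 and 1020.5 in the fibroblast libraries and 4.97, 10.2, 24.4 and 4.98 in the macrophage libraries (log2 difference -6.66, SE 0.48, adjusted p 6.22e-06), and Pi16, a marker of adventitial fibroblasts, read 744, 470.2 and 635 in the fibroblast libraries and 37.5, 58.0, 34.2 and 48.3 in the macrophage libraries (log2 difference -3.77, SE 0.28, adjusted p 6.77e-06). Of 11 papillary genes 7 were higher in fibroblasts, among them Wif1 and Ntn1, a netrin (-5.03), and Crabp1, Dpp4, Rgcc and Trps1 were not called. Of 11 genes of the hair follicle papilla and sheath 9 were higher, with Fgf7, a keratinocyte growth factor, at 136, 82.0 and 68.6 in the fibroblast libraries and 0.0809, 0.0937, 0.0355 and 0.103 in the macrophage libraries (log2 difference -6.39, SE 0.66, adjusted p 7.30e-05). Acta2, the smooth muscle actin, read 155, 67.6 and 45.7 in the fibroblast libraries and 0.404, 3.97, 3.23 and 4.34 in the macrophage libraries (log2 difference -4.47, SE 0.72, adjusted p 0.00135), with the highest value in fibroblasts 2. In the papilla and sheath list Fgf10 and Crabp1 were not called, and Sox2, Corin, Rspo2, Prom1 and Notum had no values in the skin data. The shares above are of bulk signal and do not count cells.

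Transcription factors of each lineage were among the genes separated. Of 26 myeloid factors, 12 were higher in macrophages. Spi1, encoding PU.1, which directs myeloid differentiation, read 497, 531, 421 and 539 in the macrophage libraries and 2.37, 0.203 and 0.425 in the fibroblast libraries (log2 difference 8.09, SE 0.41, adjusted p 4.87e-07). Irf5, a factor of inflammatory gene expression, and Irf8, a factor of monocytes and dendritic cells, differed by 3.55 and 5.24. Ikzf1, a lymphoid and myeloid factor, read 46.8, 33.5, 45.9 and 74.2 in macrophages and stood at 0 reads in all fibroblast libraries (log2 difference 5.54), at least 646-fold higher in macrophages on the basis used for Siglece. Several factors known for macrophages were not called. Maf and Cebpa differed by 0.46 and 0.50. Klf4 was higher in fibroblasts by 2.54-fold (adjusted p 0.0495), a call that was lost without any 1 of fibroblasts 2 and 4 and macrophages 1, 2, 3 and 5, with differences of -1.51 to -0.98.

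Of 34 mesenchymal and positional factors, 29 were higher in fibroblasts and none in macrophages, with a median of -3.58. Ebf1 read 403, 343 and 277 in the fibroblast libraries and 0.890, 3.09, 7.28 and 0.649 in the macrophage libraries (log2 difference -6.71, SE 0.62, adjusted p 3.36e-05). Msx1 and Tbx15, homeobox and T-box factors of limb and trunk mesenchyme, differed by -6.87 and -6.30. Prrx1 and Twist2, factors of dermal mesenchyme, differed by -5.43 and -4.40. Nfia, Nfib and Nfix, nuclear factor I proteins, differed by -4.05, -4.74 and -3.21. Tead1, Yap1 and Wwtr1, the factor and co-activators of Hippo signalling, differed by -3.52, -3.05 and -5.08. Yap1 was not called without fibroblasts 2 (-3.16), 4 (-2.94) or 5 (-3.05) or macrophages 5 (-2.65). Of the 2 Hox genes tested, Hoxa2 was higher in fibroblasts at 40.8, 62.7 and 21.8 in the fibroblast libraries and 0.0809, 0.194, 0.0355 and 0.0342 in the macrophage libraries (log2 difference -5.15, SE 0.68, adjusted p 3.60e-04).

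The sequences just before the start of genes were searched for letters known to be bound by factors of either lineage. RefSeq promoters of build GRCm38.p6 were matched for 9321 of the 12079 genes tested, and the 250 bases before the first listed start were read on both strands. The PU.1 letters GAGGAAGT were in 45 of 466 matched promoters of genes at least 8-fold higher in macrophages (9.66%), in 7 of 651 of those at least 8-fold higher in fibroblasts (1.08%), in 242 of all matched promoters of tested genes (2.60%) and in 660 of 27025 promoters of the table (2.44%). The TEAD letters GGAATGT were in 7 (1.502%), 36 (5.53%), 212 (2.27%) and 875 (3.24%) of the same sets. The RUNX letters TGTGGTT were in 7.51%, 3.38%, 3.19% and 4.46% of these sets, and the AP-1 letters TGANTCA in 9.01%, 6.30%, 4.48% and 6.87%. The TATA box TATAAA was in 10.7%, 9.37%, 6.47% and 12.97%, and the CCAAT box in 32.8%, 32.1%, 36.5% and 34.5%. The CLEAR core TCACGTGA, bound by factors of lysosomal genes, was in 0.429%, 1.23%, 1.65% and 0.803%, and the SMAD palindrome GTCTAGAC in 0.215%, 0%, 0.204% and 0.174%. None of these motifs contains another. Related genes were counted singly, so the paired receptors Pirb and Pira2, both on chromosome 7, each add a PU.1 match. A match is a run of letters and not a site shown to be bound. The sequences printed are 2 promoters of macrophage genes with the PU.1 letters in capitals and 2 of fibroblast genes with the TEAD letters in capitals, each 5' to 3' on the strand of its gene. Pirb (chr7:3720383-3720632, minus strand) and Ogn (chr13:49607765-49608014, plus strand) hold the letters on the strand of the gene, starting 120 and 86 bases before the start, and C1qc (chr4:136892915-136893164, minus strand) and Col3a1 (chr1:45311288-45311537, plus strand) on the other strand, at 195 and 169 bases.
Pirb: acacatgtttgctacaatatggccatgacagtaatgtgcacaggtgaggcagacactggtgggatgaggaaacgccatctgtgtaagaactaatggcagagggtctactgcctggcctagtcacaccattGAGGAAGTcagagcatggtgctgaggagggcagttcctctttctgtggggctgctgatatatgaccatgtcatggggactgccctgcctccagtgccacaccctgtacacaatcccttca
C1qc: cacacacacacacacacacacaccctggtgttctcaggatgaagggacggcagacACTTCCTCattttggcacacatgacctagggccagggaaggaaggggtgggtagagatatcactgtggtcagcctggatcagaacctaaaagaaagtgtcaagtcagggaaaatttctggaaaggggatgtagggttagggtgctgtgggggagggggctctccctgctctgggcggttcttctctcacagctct
Col3a1: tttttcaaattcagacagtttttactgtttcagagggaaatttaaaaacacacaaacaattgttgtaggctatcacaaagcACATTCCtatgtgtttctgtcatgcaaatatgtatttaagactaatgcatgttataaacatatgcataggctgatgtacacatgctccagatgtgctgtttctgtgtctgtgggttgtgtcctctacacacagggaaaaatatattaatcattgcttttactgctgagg
Ogn: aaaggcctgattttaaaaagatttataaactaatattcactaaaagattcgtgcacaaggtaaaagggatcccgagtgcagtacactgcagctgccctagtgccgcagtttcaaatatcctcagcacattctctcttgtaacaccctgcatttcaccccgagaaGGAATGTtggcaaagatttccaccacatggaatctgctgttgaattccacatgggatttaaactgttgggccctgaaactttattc
Pirb read 386, 297, 201 and 409 in the macrophage libraries and 0.0354, 0.296 and 0.140 in the fibroblast libraries (adjusted p 6.48e-07), C1qc read 1416, 1565, 2176 and 1659 in the macrophage libraries and 3.72, 1.25 and 1.84 in the fibroblast libraries, Col3a1 differed by -6.92 and Ogn read 1015, 767 and 784 in the fibroblast libraries and 8.98, 18.9, 6.93 and 1.67 in the macrophage libraries (adjusted p 2.01e-05). These 4 were picked as examples after their values were known, and nothing is drawn from them about the factors.

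Lists of genes used by most cells had medians of 1.41 for class I presentation, 1.14 for glycolysis, 0.48 for ribosomal proteins and -0.15 for the secretory pathway. Of 16 class I presentation genes, 9 were higher in macrophages, with H2-D1 at 3647, 4181, 3078 and 4639 in the macrophage libraries and 1001, 687 and 823 in the fibroblast libraries (log2 difference 2.21, SE 0.21, adjusted p 4.78e-05) and B2m, the common light chain, at a 3.80-fold difference. Psmb8, a subunit of the immunoproteasome, differed by 3.44. Of 25 glycolysis genes 12 were higher in macrophages and 1, the muscle phosphofructokinase Pfkm, in fibroblasts, with Gapdh and Ldha at 1.99 and 1.19. Pfkm differed by -2.97 and was not called without any 1 of fibroblasts 2, 4 and 5 and macrophages 3 (-2.43 to -3.25). Of 29 respiratory chain genes, all encoded in the nucleus, 12 were higher in macrophages and none in fibroblasts, with a median of 0.73. Without fibroblasts 2, fibroblasts 5 and macrophages 2, 7, 7 and 6 were higher in macrophages. The mitochondrial gene mt-Cytb, which is not in this list, was higher in fibroblasts (-0.97). Of 30 ribosomal protein genes 2 were called, against 24.0% of all genes. Both were higher in macrophages, Rps9 among them (1.02), and the number called ran from 0 to 6 with single libraries left out. Rps9 was not called without fibroblasts 5 (0.87) or macrophages 2 (0.91). Of 30 secretory pathway genes 7 were higher in fibroblasts, among them Kdelr3, a retrieval receptor of the endoplasmic reticulum (-5.20), and Creb3l1, a factor of collagen secretion (-3.92). Of 25 cell cycle genes 2 were higher in macrophages and 2 in fibroblasts, against 11.4% and 12.7% of all genes, and 21 were not called. Among them, Mki67, the proliferation marker, read 25.4, 35.3, 23.9 and 56.8 in the macrophage libraries and 5.92, 85.8 and 39.5 in the fibroblast libraries (log2 difference 0.24, SE 0.76, adjusted p 0.854). Pcna, a clamp of DNA replication, and Ccna2, a cyclin, were higher in macrophages (0.88 and 3.33). Pcna was not called without any 1 of fibroblasts 2 and 5 and macrophages 2, 3 and 5 (0.80 to 0.87), nor Ccna2 without any 1 of fibroblasts 2 and 4 and the 4 macrophage libraries (2.50 to 3.45). The inhibitor Cdkn1c and the cyclin Ccnd2 were higher in fibroblasts by 35.2-fold and 5.08-fold.

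Of 26 interferon-stimulated genes 3 were higher in macrophages and 2 in fibroblasts, against 11.4% and 12.7% of all genes, so the shares were near the background. Ifitm3, an antiviral membrane protein, was higher in fibroblasts by 2.64-fold. Oas1a, an oligoadenylate synthase, read 93.8, 56.3, 78.9 and 72.8 in the macrophage libraries and 0.0354, 0.0290 and 4.54 in the fibroblast libraries (log2 difference 5.35, SE 0.71, adjusted p 3.73e-04). Of 25 immediate-early genes 7 were higher in macrophages, with Dusp1, a phosphatase, at 1411, 2734, 2269.9 and 5032 in the macrophage libraries and 621, 838 and 775 in the fibroblast libraries (log2 difference 1.8, SE 0.36, adjusted p 0.00474) and Klf6 at 1.29. The factors Fosl1, Egr1 and Klf4 were higher in fibroblasts (-2.66, -1.5 and -1.35). Egr1 was not called without fibroblasts 4, fibroblasts 5, macrophages 1 or macrophages 3 (-1.41, -1.25, -1.35 and -1.28), nor Klf4 without any 1 of fibroblasts 2 and 4 and the 4 macrophage libraries (-1.51 to -0.98). Fos was not called (log2 difference 0.95, SE 0.39, adjusted p 0.105). Of 18 genes of feedback on NF-kappa-B 8 were higher in macrophages and none in fibroblasts, and Tnip3, an inhibitor of the pathway, read 168, 175, 196 and 249.6 in the macrophage libraries and 0.106, 0.0869 and 0.0283 in the fibroblast libraries (log2 difference 7.48, SE 0.45, adjusted p 1.77e-06).

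A few genes were close to equal. The 7 genes whose 95% interval lay between -0.5 and 0.5, with a mean signal of at least 100 in both groups, were Hmgb1, Morf4l1, Ssr1, Ywhaq, Degs1, Anxa1 and Arpp19. Hmgb1, a chromatin protein that acts as an alarmin when released, read 1154, 1284, 1231 and 1082 in the macrophage libraries and 1179, 1026 and 1161 in the fibroblast libraries (difference 0.08, 95% interval -0.30 to 0.46). Anxa1, a calcium-dependent membrane protein that limits inflammation, read 1799, 1889, 1887 and 2053 in the macrophage libraries and 1858, 2547 and 1628 in the fibroblast libraries (difference -0.05, 95% interval -0.50 to 0.39). The groups overlapped for all 7.

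Markers of other cell types were present at levels that differed between libraries. Summed over 16 keratinocyte genes, the signal was 1679.5 to 4245 in macrophages and 1334 to 17126 in fibroblasts, with fibroblasts 2 the lowest library of all. Krt14, a keratin of basal keratinocytes, read 377, 3453 and 3354 in the fibroblast libraries and 867, 1242, 1369 and 424 in the macrophage libraries and was not called (log2 difference -0.88, SE 0.72, adjusted p 0.42). The keratinocyte genes called higher in fibroblasts were Krt1, Krt10, Dsc3 and Trp63 (-4.19, -3.19, -2.20 and -1.90, and -3.43, -2.38, -1.70 and -1.59 without fibroblasts 4). Their number of 4 was 11 without fibroblasts 2, 2 without macrophages 2, and 0 without fibroblasts 4, fibroblasts 5, macrophages 1 or macrophages 5. Of 9 tested genes of T and natural killer cells, 5 were higher in macrophages and 1, Thy1, in fibroblasts, with Cd3e at 64.8, 26.7, 34.4 and 8.78 in macrophages and at most 0.106 in fibroblasts. Their summed signal, which includes Thy1, was 118 to 379 in macrophages and 115 to 233 in fibroblasts. Ighm, an immunoglobulin heavy chain of B cells, read 446, 293, 269 and 257 in macrophages and 1.39 at most in fibroblasts. The summed signal of 5 neutrophil genes was 49.4 to 215 in macrophages and 0.735 to 39.5 in fibroblasts. Mmp9, Mmp8, Retnlg and Csf3r were the 4 of them higher in macrophages (5.15, 4.25, 2.42 and 3.93). Retnlg was not called without fibroblasts 5 (2.42), nor Csf3r without any 1 of fibroblasts 2 and 5 and macrophages 2 and 5 (3.52 to 3.92). S100a8 was not called, at 7.04, 8.91, 9.84 and 14.6 in the macrophage libraries and 0.0354, 0.0290 and 26.0 in the fibroblast libraries. The part of these cells in the differences above was not tested.

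The same comparison was made in lung, with 3 libraries of interstitial macrophages and 3 of fibroblasts from depleted mice at 124075 to 269602 estimated reads, and set side by side. The 2 tables had been normalised separately, and nothing was tested between them. In lung, 12.5% of 11867 genes were higher in macrophages and 10.6% in fibroblasts. Of 9976 genes tested in both organs, 1292 were higher in macrophages in skin and 1354 in lung, and 836 were on both lists, which is 64.7% of the skin list and 61.7% of the lung list. On the fibroblast side the lists held 1066 and 1101 genes and shared 556, which is 52.2% and 50.5%. In opposite directions were 28 genes, with 16 higher in macrophages in skin and in fibroblasts in lung, and 12 the other way. Cyp2f2, a cytochrome P450 enzyme of the lung airway, read 414, 105 and 117 in the fibroblast libraries and 0.0809, 0.266, 10.0 and 0.444 in the macrophage libraries in skin (log2 difference -6.30, SE 0.92, adjusted p 7.10e-04), and its difference in lung was 2.72 (adjusted p 1.82e-04). Axl was higher in skin fibroblasts (-3.86) and in lung macrophages (2.47, adjusted p 1.46e-04), and Il1r2 likewise (-2.42 in skin, 2.54 in lung, adjusted p 0.0137). Cd40 was higher in skin macrophages (2.95) and in lung fibroblasts (-2.10, adjusted p 0.00226). Cd74 and Col3a1 had the same sign in both organs, at 9.60 and -7.00 in lung.

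**Figure D5:**
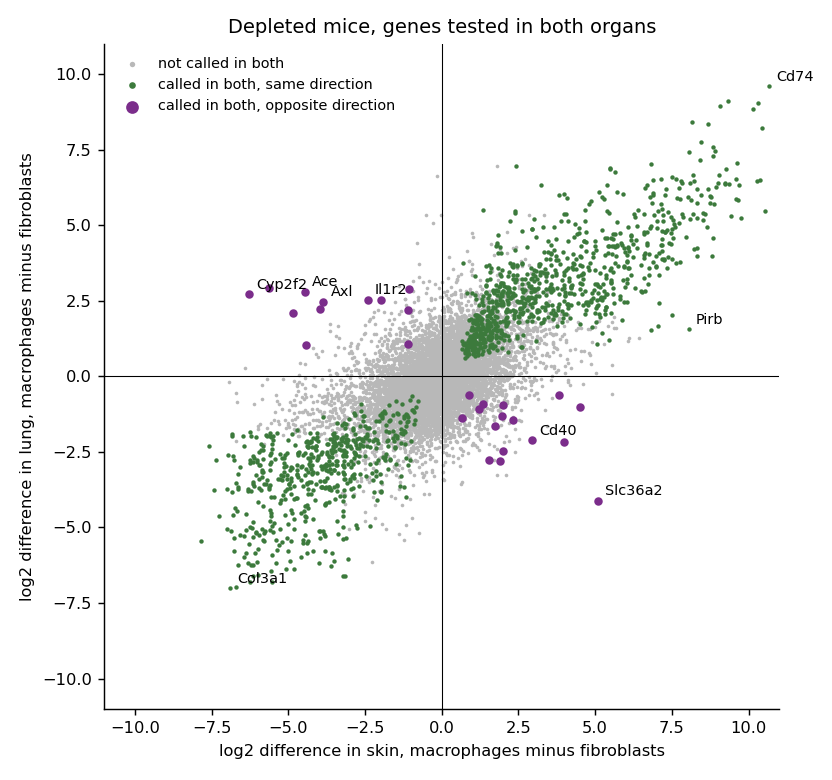
Log2 difference, macrophages minus fibroblasts, of 9976 genes in skin (x) and lung (y) of depleted mice, with genes called in both organs in the same direction in green and in opposite directions in purple. Cd74 lies at the upper right and Col3a1 at the lower left, and 28 genes, Cyp2f2, Axl and Cd40 among them, lie in the other quadrants.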

How the data were processed

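RNA-seq of sorted cells was deposited as 1 table a organ. The values are the authors' normalised signal, never negative; limma 3.46, RSEM 1.7.1, cutadapt 1.7.1, CASAVA 1.8 and build mm10 are named, with no role or order, in the submitters' processing notes. From the values, a signal is a constant of the library times the estimated reads plus 0.5, from which reads per library were recovered (6.55e+06 to 1.84e+07 in the skin libraries used, so a gene near 1 read is measured with little precision). Estimated reads were not all whole, so no count test was run.

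Genes that reached 1 part in 1000000 of a library's total in 3 or more libraries were tested with limma 3.58.1 in R 4.3.3 (empirical Bayes with a variance trend, Benjamini-Hochberg adjustment) on log2 of the deposited signal plus 1.03, which is 1 part in 1000000 of the mean library total; lung used 1.07. The skin fit held the 7 libraries of depleted mice. A fold against a group at 0 reads was set against 3 reads over that group. Promoters came from RefSeq. Gene symbols were matched through the gene identifiers, of which 20 matched no symbol.

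The libraries follow from their labels, but the members (this comparison) and the 59 gene lists were chosen with earlier results of these data known. Named are the sorting markers, the 10 genes with the widest log2 difference and the 10 with the widest signal difference in each direction, up to 6 members of a list by lowest p with the members called against its direction, any ligand, receptor, collagen or transcription factor of the lists, nearly equal genes, the genes with the widest spread within a group, and genes called in the opposite direction in lung. Other list members named, those not called among them, were chosen after their values were seen. Alternatives changed the pseudocount, filter, scaling, variance model, weights, threshold, libraries and replicate block. Some genes are not reported here.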

Additional observations from a re-analysis of the deposited data

Results flagged for a closer look

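In 17 of the 314 named genes examined, 1 of the 4 macrophage libraries stood apart by a gap larger than Dixon's 95% critical value. Chance gives about 1 in 20 groups, and 11.1% of all 12079 tested genes passed the same limit. Macrophages 5 was the lowest library for the presentation genes Cd74 (60371 against 79762 to 84452 in the others) and H2-Aa (15072, 15567, 14907 and 11318, in the library order above), for Cd207 (6.53) and Epcam (28.8), which mark Langerhans cells among other cells, and for the matrix gene Dpt (9.05). It was the highest for Lgmn (3474) and for Fosl1 (1.74). Macrophages 3 was the highest for Maf (243.7), a macrophage transcription factor, and for Col5a1 (3.09) and Cyp2f2 (10.0). Macrophages 2 was the highest for Ackr1 (2.66). Macrophages 1 was the lowest for Tspan4 (0.243), Ptpn22 (0.243) and Pcna (100.5), and the highest for Ptgfr (27.8) and Steap4 (40.2), and for Col6a6 (0.0809), where all 4 libraries stood at 0 reads and differ only by what a read is worth.

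For 9 named genes every skin macrophage library lay on one side of the fibroblast libraries and every lung macrophage library on the opposite side of the lung fibroblast libraries. The difference between the organs was not tested. Higher in skin fibroblasts were Cyp2f2 (-6.30 in skin and 2.72 in lung), Ace (-4.47 and 2.80), Axl (-3.86 and 2.47), Il1r2 (-2.42 and 2.54), Ctsk (-1.98 and 2.54), Klf4 (-1.35 and 0.92) and Igf1 (-1.11 and 1.06). Higher in skin macrophages were Cd40 (2.95 and -2.10) and Ecm1 (0.67 and -1.38).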

How the results depend on the processing

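The 2901 genes called in skin became 4457 with library weights (2864 of them shared) and 1776 at an adjusted p below 0.01, and the 2731 genes called in lung became 1716 at an adjusted p below 0.01. The other planned settings, which changed the pseudocount, filter, scaling, variance trend, model or fibroblast group, gave 2519 to 3352 in skin and 2292 to 2863 in lung. Leaving out single libraries gave 2279 to 3178 genes in skin and 1961 to 2389 in lung. The shares of calls higher in either cell type moved by less than 10 percentage points, but the larger side changed in skin: 1372 were higher in macrophages and 1529 in fibroblasts, against 1528 and 1375 with median ratio scaling, 1601 and 1510 with quantile normalization and 1325 and 1194 with the filter at 10 parts in 1000000. The model of 4 groups (2570 genes) held control macrophages 1 and 5 as labelled, whose identity scores of -9.03 and -9.63 were those of fibroblasts. Without macrophages 1 and fibroblasts 4 together, an alternative chosen after seeing the data, 3736 genes were called (1724 higher in macrophages and 2012 in fibroblasts). The identity score difference was 12.18 to 14.83 under other pseudocounts and scaling, and 13.40 to 13.98 with single libraries left out, where 20 or 15 arrangements allow no p below 0.1 or 0.133. Of the called genes named here, 240 of 270 were called under every alternative of the fit that tested them, 30 lost the call under at least 1, and none changed sign. Most of these genes were named for a wide difference or a low p, so this share does not hold for all calls. Of all 2901 called genes, 2210 (without fibroblasts 5) to 2896 (random replicate block) were also called under a single alternative of the fit. Among the 43 named genes that were not called, 22 changed sign under some setting without being called there, and 20 were called under at least 1 alternative, most often Itgav (9 of 20), Epcam (8), Ccl2 (7) and H2-Ob (6). Anxa1 was called with quantile normalization (-0.55) and, in the opposite direction, with control fibroblasts as the fibroblast group (0.51). Ifit3 and Slc35f5, both near 0 in fibroblasts 4, were called under some settings in the opposite direction to their uncalled main values. These were the fixed replicate block (-1.92 and -1.46), the fit without fibroblasts 4 (-1.89 and -1.61) and the fit without macrophages 1 and fibroblasts 4 (-1.60 and -1.38). With single libraries left out, Ifit3 ranged from -1.89 to 1.35 and Slc35f5 from -1.61 to 1.63. The replicate numbers were not taken to pair the samples, and whether libraries of the same number came from the same animal is not known. Deviations from the group means correlated at -0.0214 (number 2) and 0.150 (number 5) between same-numbered skin libraries. Different-numbered skin libraries gave -0.0753 to 0.0463, and same-numbered lung libraries -0.00446 to 0.0116. The random block estimated a correlation of 0.24 within a number in skin. Both libraries of number 2 were high in Xist and both of number 5 in Ddx3y, so pairing is not settled. With the number as a fixed replicate block, 3623 genes were called in skin over the 4 libraries that share numbers and 3029 in lung, and 3226 with a random block over all 7 skin libraries. Depth limits genes near 1 read in macrophages 1, which had the fewest reads.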

Other observations

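The genes with the widest spread within a group were of 2 kinds. Xist, Tsix and Ddx3y are genes of the sex chromosomes, and sex was read above from Xist and Ddx3y themselves. Eif2s3y, which is also on the Y chromosome, read 0.0809, 0.0312, 0.0355 and 104 in macrophages 1, 2, 3 and 5 and 0.177, 1.42 and 75.9 in fibroblasts 2, 4 and 5, so it was low in fibroblasts 4, where Ddx3y was high. The others named here stood near 0 in 1 library and far above it in the rest. Tardbp, an RNA-binding protein of most cells, read 0.0809, 52.0, 127 and 51.8 in macrophages 1, 2, 3 and 5. Tspan4, Ptpn22 and Kdm7a read 0.243, 91.8, 111 and 94.0, 0.243, 57.8, 49.8 and 103 and 0.516, 50.5, 134 and 61.3 in the same order, with macrophages 1 near 0 each time. In fibroblasts 2, 4 and 5, Ifit3 read 57.1, 0.0290 and 93.3, Slc31a1 80.8, 0.145 and 77.8, Plbd2 72.2, 0.145 and 81.2 and Slc35f5 119.8, 0.319 and 78.9, with fibroblasts 4 near 0 each time.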
